A study of Mus musculus with 4 samples.

Results

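The 10 genes described here carry the calcium signal of the B cell receptor (BCR), from the enzyme that starts it to a transcription factor that reads it. They are *Plcg2*, *Itpr1*, *Itpr2*, *Itpr3*, *Stim1*, *Stim2*, *Orai1*, *Orai2*, *Trpc1* and *Nfatc1*, and they were taken by name from the count table, 10 of its 41214 genes. When antigen binds the BCR, kinases switch on phospholipase C gamma, which cleaves a membrane lipid into diacylglycerol and inositol trisphosphate (IP3). IP3 opens channels in the endoplasmic reticulum (ER), the store empties, and STIM proteins sense the loss and open ORAI channels in the plasma membrane, so that calcium also enters from outside. Calmodulin then activates the phosphatase calcineurin, which removes phosphate from NFAT factors and lets them enter the nucleus.

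Splenocytes bearing B220 were sequenced from control mice (MIZ-1 WT) and mutant mice (MIZ-1 △POZ) to ask how loss of the POZ domain of MIZ-1 alters gene expression in splenic B cells, with 2 biological replicates per genotype. MIZ-1, encoded by *Zbtb17*, is a zinc finger transcription factor that forms complexes through its POZ domain. MIZ-1 △POZ mice carried *Mb1-Cre* and the *Miz-1 floxPOZ* allele, so that Cre recombinase removed the domain in the B lineage, and the control libraries are labelled WT with no statement on which of these alleles the mice had. All lines were on a C57BL/6 background, mice were 40 to 70 days old, no stimulus is named for the cells, and how many animals gave each library is not stated. B220+ cells were collected on magnetic beads, a positive selection that keeps every cell type bearing B220 and any cell that sticks to the beads. The Cre of *Mb1-Cre* sits in *Cd79a*, which had 14668 and 13089 counts in MIZ-1 WT against 4891 and 5939 in MIZ-1 △POZ. Counts on genes summed to 44452007 and 43026814 in the MIZ-1 WT libraries and to 46387209 and 43214303 in the MIZ-1 △POZ libraries, so that 1 CPM (counts per 1e+06 after TMM scaling) stood for 42.0 to 47.6 counts.

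*Zbtb17* itself was read in every library, at 47.8 and 46.3 CPM in MIZ-1 WT and at 37.3 and 38.0 CPM in MIZ-1 △POZ. The change, given throughout as the log2 ratio of MIZ-1 △POZ to MIZ-1 WT, was -0.32 (SE 0.06, adjusted p = 0.00857, edgeR's quasi-likelihood test, Benjamini-Hochberg). Without MIZ-1 WT replicate 1 it was -0.30 and not called (adjusted p = 0.0666, the same edgeR test, Benjamini-Hochberg), and on a scale set by pan-B cell genes, described below, it was 0.03. Counts cover all exons of the gene, so they do not show the loss of the exons that encode the POZ domain. Genes that mark sex differed between the genotypes. *Xist*, the RNA that silences one X chromosome in females, had 49 and 60 counts in MIZ-1 WT against 38145 and 40838 in MIZ-1 △POZ, and the Y-linked *Ddx3y* had 15840 and 14896 against 680 and 622. With Y-linked counts left in MIZ-1 △POZ, whether each library came from animals of a single sex is not known. Effects of sex and of genotype cannot be told apart in any value below.

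The labelled cell type was checked against its markers. Markers counted as higher or lower are those called by the test over all genes described below. That test called 21.1% of all genes higher and 18.9% lower in MIZ-1 △POZ (edgeR's quasi-likelihood test, Benjamini-Hochberg). The 10 pan-B cell genes were abundant in every library, led by *Ms4a1*. They summed to 11244 and 11529 CPM in MIZ-1 WT against 9142 and 9592 CPM in MIZ-1 △POZ. The CPM of all 10 were lower in MIZ-1 △POZ without overlap, and 9 of the 10 were called lower (median log2 fold change -0.35). Scaling to these genes removes this direction by construction. Macrophage markers moved the other way. All 16 were higher in MIZ-1 △POZ (median 2.00), with summed levels of 952 and 1264 CPM against 5651 and 3573 CPM, led by *Vcam1* and with no marker at 0 counts. Within the B lineage, 8 of 8 marginal zone genes (median 0.71, led by *Cr2*) and 5 of 6 plasma cell genes (median 1.01, led by *Jchain*) were called higher. The other plasma cell gene, *Irf4*, was at -0.09 and not called. Called lower were 3 of 5 follicular (median -0.51) and 4 of 4 tested transitional genes (median -0.92, led by *Cd24a*). The CPM of all 5 follicular genes were lower in MIZ-1 △POZ without overlap. The marginal zone genes summed to 2889 and 2904 CPM in MIZ-1 WT and to 3654 and 3916 CPM in MIZ-1 △POZ, the plasma cell genes to 734 and 1059 against 2477 and 2309.9 CPM, the follicular genes to 1730.4 and 1848 against 1416 and 1522 CPM, and the transitional genes to 668 and 569.99 against 434 and 503 CPM. Of 8 dendritic cell, 6 NK cell and 5 neutrophil genes 3, 2 and 1 were called higher, and of 8 erythroid genes none was called. These lists are too small to set such counts apart from the 21.1% of all genes called higher. T cell genes summed to between 70.4 and 99.1 CPM, and 2 of 14 were called higher in MIZ-1 △POZ. These marker levels differ along with genotype, cell makeup cannot be read directly from these libraries, and the part of other cells in the values below was not tested. In such bulk samples, fewer cells of a type and less RNA per cell cannot be told apart.

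Of 14554 genes that had 10 or more counts in 2 or more libraries, 5822 (40%) passed an adjusted p of 0.05 between genotypes, 3076 of them (21.1%) higher and 2746 (18.9%) lower in MIZ-1 △POZ (edgeR's quasi-likelihood test, Benjamini-Hochberg). All 10 calcium signaling genes were tested. *Itpr1*, *Itpr3* and *Orai2* were lower in MIZ-1 △POZ, 3 of 10 against 18.9% of all genes, and none of the 10 was higher, against 21.1%. At an unadjusted p under 0.05, 4 were lower and 1 was higher, and DESeq2 called 4 lower and again none higher, beside 7309 and 5082 of all 14554 genes by these 2 counts in either direction. The MIZ-1 WT and MIZ-1 △POZ CPM values of 8 of the 10 did not overlap, which was so for 74.8% of all tested genes. The median log2 fold change was -0.11 over the 10 genes and -0.01 over all tested genes. Leaving out either MIZ-1 WT library ended the calls of *Itpr1* and *Itpr3*. With each library left out in turn, log2 fold changes ran from -0.36 to -0.23 (*Itpr1*), -0.42 to -0.28 (*Itpr3*) and -0.59 to -0.48 (*Orai2*). With so many genes called in this comparison, the counts of members lie near the background.

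The scale given to the libraries decides the sign of several of these values. When libraries were scaled to the 10 pan-B cell genes instead of by TMM, the log2 fold changes of all genes moved up by 0.36, and 7829 genes were higher and 496 lower, so that 94.0% of the calls were higher against 52.8% under TMM. On that scale *Plcg2*, *Itpr2*, *Stim1*, *Stim2* and *Trpc1* were higher in MIZ-1 △POZ and none of the 10 was lower, which lies near the background of that scale. Values below are on the TMM scale unless the pan-B cell scale is named. Since the change of scale moves all genes by about the same amount, *Orai2* is lowest and *Trpc1* highest in log2 fold change on both scales by construction.

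**Figure D1:**
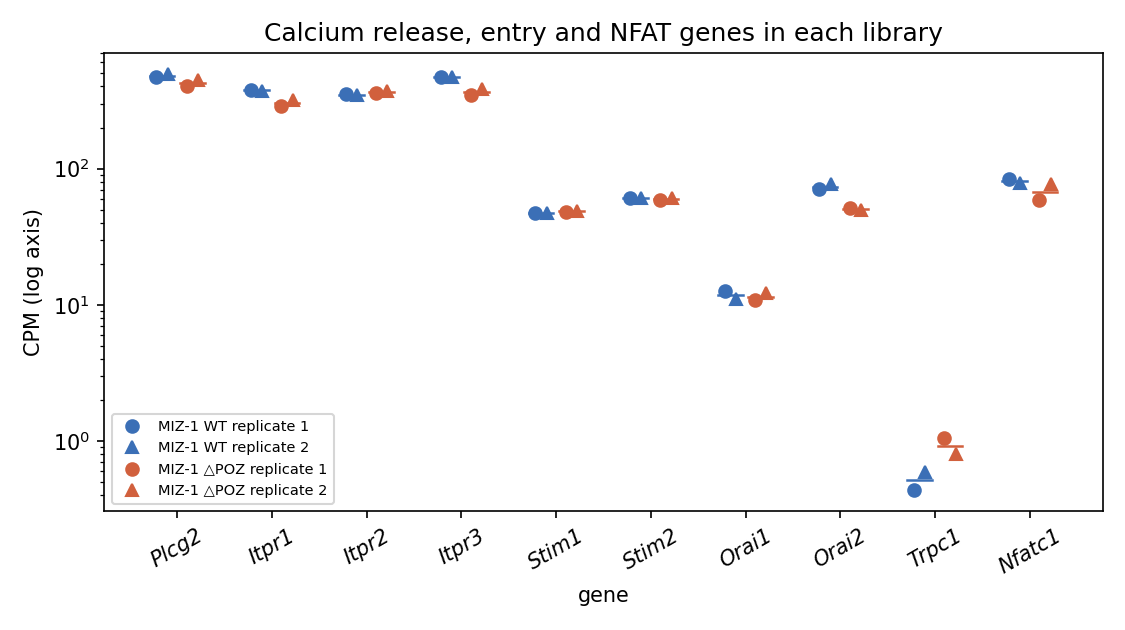
CPM of the 10 calcium signaling genes (log axis) in each of the 4 libraries, with circles for replicate 1, triangles for replicate 2 and a line at the mean of each genotype. *Trpc1* lies near 1 CPM or below, far under the others, and the MIZ-1 △POZ points of *Orai2* (51.6 and 50.0 CPM) lie below those of MIZ-1 WT (70.6 and 76.4 CPM).

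Levels between genes were compared per kb of merged exons. In MIZ-1 WT, *Plcg2* was the most abundant of the 10 at 112 CPM per kb, followed by *Itpr3* at 51.9, *Itpr2* at 23.4 and *Itpr1* at 20.5 CPM per kb. *Orai2* (12.1), *Stim2* (11.9) and *Nfatc1* (10.8 CPM per kb) formed the middle of the order, *Orai1* (5.14) and *Stim1* (4.55 CPM per kb) lay below them, and *Trpc1* came last at 0.0641 CPM per kb. The libraries of *Orai2*, 11.6 and 12.6 CPM per kb, spanned those of *Stim2* at 11.8 and 11.9, so these neighbours did not differ beyond their spread. In MIZ-1 △POZ the first 4 places and the last 3 were held by the same genes, while *Orai2* moved from place 5 to place 7, behind *Stim2* and *Nfatc1*. There its libraries, 8.49 and 8.23 CPM per kb, lay within those of *Nfatc1*, 7.85 and 10.3 CPM per kb.

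*Plcg2* (ENSMUSG00000034330, chromosome 8 from 117498291 to 117635142, GRCm38) encodes the phospholipase C gamma that B cells use downstream of the BCR. It reached 466 and 496 CPM in MIZ-1 WT against 406 and 443 CPM in MIZ-1 △POZ. Both MIZ-1 △POZ libraries lay below both MIZ-1 WT libraries, but the gap between the nearest values was smaller than the spread within either genotype. The log2 fold change was -0.18 (SE 0.06, 95% confidence interval -0.33 to -0.03), which did not pass the test over all genes (adjusted p = 0.0665, edgeR's quasi-likelihood test, Benjamini-Hochberg). It passed with DESeq2 (adjusted p = 0.0398) and with no filter on counts (adjusted p = 0.0368, edgeR's quasi-likelihood test), both with Benjamini-Hochberg. The log2 fold change was -0.22 without MIZ-1 △POZ replicate 2 and -0.11 without MIZ-1 △POZ replicate 1. When only genes averaging 30 RPM or more were kept it was -0.10 and did not pass. On the pan-B cell scale the sign of *Plcg2* turned, to 0.18. Its paralog *Plcg1*, the gamma enzyme of T cells and many other cell types, was far less abundant, with a ratio of *Plcg1* to *Plcg2* per kb of 0.0617 and 0.0604 in MIZ-1 WT and of 0.0979 and 0.0848 in MIZ-1 △POZ. This ratio is free of library scaling, and its values did not overlap between genotypes, but it was not tested. *Plcg1* itself was called higher (log2 fold change 0.40, SE 0.06, adjusted p = 0.00485, edgeR's quasi-likelihood test, Benjamini-Hochberg).

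The IP3 receptors are the channels through which calcium leaves the ER. *Itpr1* (ENSMUSG00000030102, chromosome 6 from 108213096 to 108551109) was measured at 380.1 and 370.4 CPM in MIZ-1 WT and at 288 and 318 CPM in MIZ-1 △POZ. All MIZ-1 △POZ values were below all MIZ-1 WT values, and *Itpr1* fell by 0.31 on the log2 scale (SE 0.06, adjusted p = 0.0125, edgeR's quasi-likelihood test, Benjamini-Hochberg). On the pan-B cell scale it stood at 0.05 and was not called. *Itpr3* (ENSMUSG00000042644, chromosome 17 from 27057304 to 27122223), the most abundant of the 3 receptors per kb, was at 469 and 467 CPM in MIZ-1 WT and at 344 and 384 CPM in MIZ-1 △POZ. The MIZ-1 WT libraries were nearly alike and the MIZ-1 △POZ libraries were both lower, with replicate 1 the lowest. *Itpr3* fell by 0.36 on the log2 scale (SE 0.06, adjusted p = 0.00867, edgeR's quasi-likelihood test, Benjamini-Hochberg), and stood at -0.01 on the pan-B cell scale, where it was not called.

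*Itpr2* (ENSMUSG00000030287, chromosome 6 from 146108299 to 146502223) encodes the receptor with the highest affinity for IP3. Its levels were 350.5 and 344 CPM in MIZ-1 WT against 359 and 371 CPM in MIZ-1 △POZ. The MIZ-1 △POZ libraries were the higher pair without overlap, by a margin that did not pass the test (log2 fold change 0.07, 95% confidence interval -0.04 to 0.19, adjusted p = 0.247, edgeR's quasi-likelihood test, Benjamini-Hochberg). It passed when only genes averaging 30 RPM or more were kept (log2 fold change 0.15) and on the pan-B cell scale (0.43). Both settings change the scale of the libraries.

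Set against each other, the 3 receptors did not keep their proportions. *Itpr2* made up 24.5% and 24.4% of the summed IP3 receptor level per kb in MIZ-1 WT against 31.0% and 29.5% in MIZ-1 △POZ. *Itpr3* made up 53.9% and 54.4% in MIZ-1 WT against 48.8% and 50.1% in MIZ-1 △POZ, and *Itpr1* 21.5% and 21.2% against 20.1% and 20.4%. The share of *Itpr2* was thus larger in each MIZ-1 △POZ library and those of the other 2 receptors smaller, whatever the library scale. As a ratio per kb, *Itpr3* to *Itpr2* was 2.20 and 2.23 in MIZ-1 WT against 1.57 and 1.70 in MIZ-1 △POZ, and *Itpr1* to *Itpr2* was 0.876 and 0.871 against 0.648 and 0.693. These ratios were not tested. The summed level of the receptors was 96.5 and 95.2 CPM per kb in MIZ-1 WT against 78.2 and 85.0 CPM per kb in MIZ-1 △POZ.

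**Figure D2:**
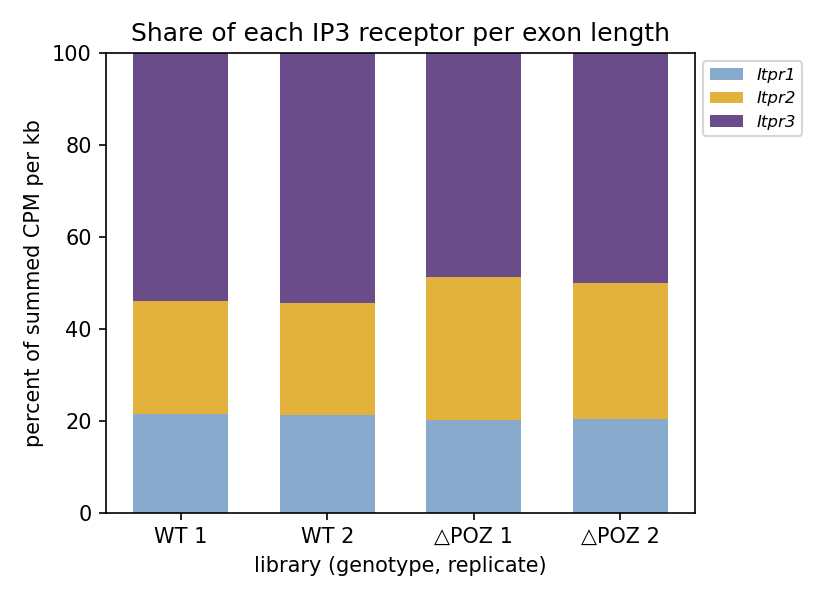
Share of *Itpr1*, *Itpr2* and *Itpr3* in their summed level per kb of exon (stacked bars, percent) in each library. *Itpr2* takes 24.5% and 24.4% in MIZ-1 WT against 31.0% and 29.5% in MIZ-1 △POZ.

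The calls of *Itpr1* and *Itpr3* needed both MIZ-1 WT libraries. Without MIZ-1 WT replicate 1 the adjusted p was 0.0865 for *Itpr1* and 0.0622 for *Itpr3*, and without MIZ-1 WT replicate 2 it was 0.0611 and 0.0526 (edgeR's quasi-likelihood test, Benjamini-Hochberg), while the log2 fold changes of *Itpr1* stayed between -0.36 and -0.23 and those of *Itpr3* between -0.42 and -0.28 over all 4 libraries left out in turn. Exons of *Itpr3* overlap *Itpr3os* on the opposite strand by 233 bases, and *Itpr3os* had 0 counts in every library.

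STIM1 and STIM2 are the calcium sensors of the ER membrane. *Stim1* (ENSMUSG00000030987, chromosome 7 from 102267806 to 102437319), which encodes the sensor that responds to strong store depletion, was at 47.1 and 47.4 CPM in MIZ-1 WT and at 48.1 and 48.8 CPM in MIZ-1 △POZ. *Stim2* (ENSMUSG00000039156, chromosome 5 from 53998499 to 54121057), whose product responds to small changes in store calcium, was at 60.7 and 61.1 CPM in MIZ-1 WT and at 59.1 and 61.1 CPM in MIZ-1 △POZ. The 4 libraries were close together for each gene, and for *Stim2* the genotypes overlapped. The log2 fold change was 0.04 for *Stim1* (95% confidence interval -0.09 to 0.17, adjusted p = 0.614) and -0.02 for *Stim2* (-0.15 to 0.11, adjusted p = 0.791), neither past the threshold (edgeR's quasi-likelihood test, Benjamini-Hochberg). On the pan-B cell scale both were higher, *Stim1* at 0.39 and *Stim2* at 0.34, close to the shift of all genes. Per kb, *Stim1* was the less abundant sensor, with a ratio to *Stim2* of 0.384 and 0.384 in MIZ-1 WT and of 0.403 and 0.395 in MIZ-1 △POZ. These ratios did not overlap, but they differed by only 0.06 on the log2 scale.

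ORAI proteins form the pore through which calcium enters once the store is empty. *Orai1* (ENSMUSG00000049686, chromosome 5 from 123015074 to 123030456) gave 12.6 and 10.97 CPM in MIZ-1 WT against 10.8 and 12.1 CPM in MIZ-1 △POZ, from 461 to 551 counts a library. The genotypes overlapped, with the highest and the second lowest value both in MIZ-1 WT. Its log2 fold change of -0.04 had a wide interval (-0.33 to 0.24, adjusted p = 0.792, edgeR's quasi-likelihood test, Benjamini-Hochberg), changed sign to 0.06 without MIZ-1 WT replicate 1 and to 0.05 without MIZ-1 △POZ replicate 1, and was 0.31 on the pan-B cell scale, so no direction is given for it.

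*Orai2* (ENSMUSG00000039747, chromosome 5 from 136147459 to 136170713), which encodes a subunit that conducts less than ORAI1 and can join it in mixed channels, had the largest change of the called members. It was measured at 70.6 and 76.4 CPM in MIZ-1 WT and at 51.6 and 50.0 CPM in MIZ-1 △POZ. The MIZ-1 △POZ libraries lay close together and well below both MIZ-1 WT libraries. *Orai2* fell by 0.53 on the log2 scale (SE 0.06, 95% confidence interval -0.68 to -0.38, adjusted p = 0.00257, edgeR's quasi-likelihood test, Benjamini-Hochberg), to 0.691 of its MIZ-1 WT level. It was called whichever library was left out, with log2 fold changes from -0.59 to -0.48 and adjusted p from 0.00166 to 0.0217 (the same edgeR test, Benjamini-Hochberg), and on the pan-B cell scale it stood at -0.18 and was not called (95% confidence interval -0.37 to 0.02).

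The makeup of the ORAI family differed between genotypes on a scale that needs no library factor. *Orai2* took 24.3% and 27.1% of the summed ORAI level per kb in MIZ-1 WT against 20.5% and 19.2% in MIZ-1 △POZ. *Orai3*, the third family member and the most abundant per kb, took 64.1% and 62.7% against 68.2% and 68.4%, and *Orai1* took 11.5% and 10.3% against 11.4% and 12.3%. The share of *Orai2* was smaller in both MIZ-1 △POZ libraries and that of *Orai3* larger, while the share of *Orai1* overlapped. The ratio of *Orai1* to *Orai2* was 0.473 and 0.380 in MIZ-1 WT against 0.554 and 0.642 in MIZ-1 △POZ, a description with no test.

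*Trpc1* (ENSMUSG00000032839, chromosome 9 from 95705082 to 95750375) encodes a cation channel of the plasma membrane that has been linked to entry after store depletion. It had 19 and 25 counts in MIZ-1 WT against 50 and 35 in MIZ-1 △POZ, or 0.435 and 0.595 CPM against 1.05 and 0.797 CPM. Both MIZ-1 △POZ libraries were higher, replicate 1 most of all, but all 4 values are low. The log2 fold change of 0.84 had the widest interval of the 10 (0.07 to 1.62) and missed the threshold (SE 0.31, adjusted p = 0.0793, edgeR's quasi-likelihood test, Benjamini-Hochberg), as it did with DESeq2 (adjusted p = 0.2799, and 0.0156 to 0.290 over all alternatives, Benjamini-Hochberg). Macrophage markers also had their highest summed level in MIZ-1 △POZ replicate 1 and their next in replicate 2, and their part in the *Trpc1* values was not tested. At this depth a difference in *Trpc1* could not be settled.

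*Nfatc1* (ENSMUSG00000033016) encodes NFATc1, an NFAT factor that calcineurin sends to the nucleus and that is induced when B cells are activated. Its levels were 84.0 and 77.9 CPM in MIZ-1 WT against 58.6 and 76.8 CPM in MIZ-1 △POZ. MIZ-1 △POZ replicate 1 stood apart from the other 3 libraries, and replicate 2 lay just under the lower MIZ-1 WT library. The log2 fold change of -0.26 did not pass the test (SE 0.13, 95% confidence interval -0.58 to 0.06, adjusted p = 0.157, edgeR's quasi-likelihood test, Benjamini-Hochberg). The value rests on MIZ-1 △POZ replicate 1, since it was -0.07 without that library and -0.45 (adjusted p = 0.00282, the same edgeR test, Benjamini-Hochberg) without MIZ-1 △POZ replicate 2, with adjusted p from 0.00282 to 0.477 over the alternatives, and it turned to 0.09 on the pan-B cell scale. The ratio of *Nfatc1* to *Nfatc2* per kb was 8.35 and 6.95 in MIZ-1 WT against 6.05 and 5.68 in MIZ-1 △POZ, so *Nfatc1* was the more abundant of this pair in every library.

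**Figure D3:**
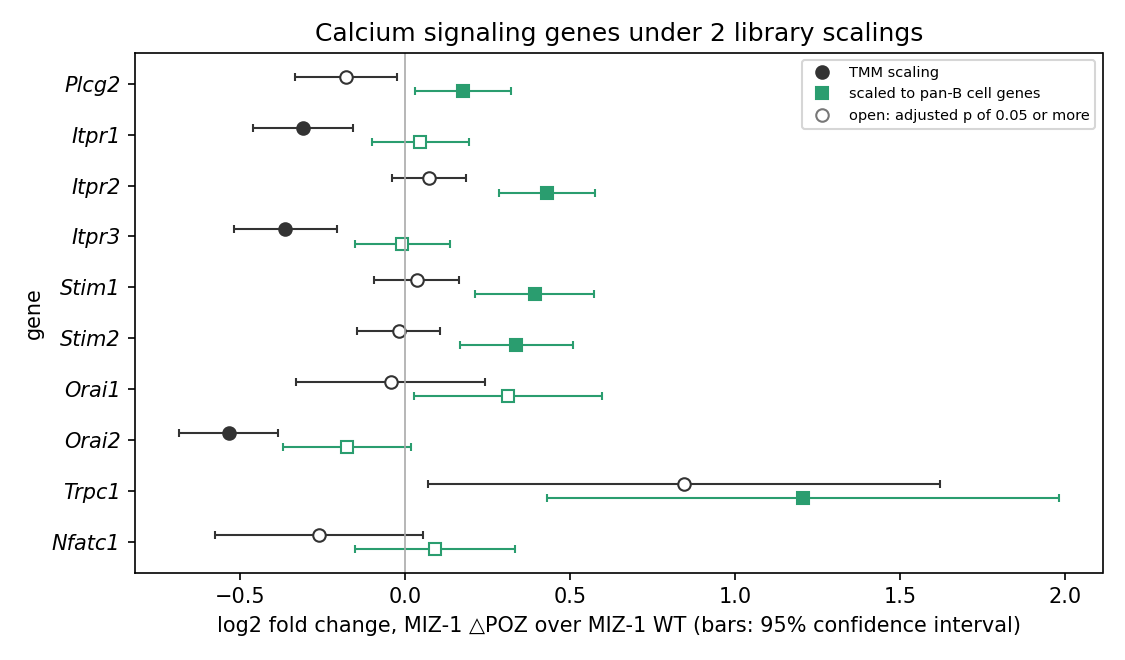
Log2 fold change of the 10 genes, MIZ-1 △POZ over MIZ-1 WT, with 95% confidence intervals, for libraries scaled by TMM (circles) and to pan-B cell genes (squares), filled where the adjusted p was under 0.05. *Itpr1*, *Itpr3* and *Orai2* are filled under TMM and open on the pan-B cell scale, where *Plcg2*, *Itpr2*, *Stim1*, *Stim2* and *Trpc1* are filled.

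The standard error of the log2 fold change was 0.05 for *Itpr2*, *Stim1* and *Stim2*, 0.06 for *Plcg2*, *Itpr1*, *Itpr3* and *Orai2*, 0.12 for *Orai1*, 0.13 for *Nfatc1* and 0.31 for *Trpc1*. *Trpc1* and *Orai1* had the fewest counts and large errors, but among the other genes the errors did not follow depth. *Stim1*, at 1993 to 2289 counts a library, was more precise than *Plcg2* at 19347 to 20832 and than *Nfatc1* at 2790 to 3667.

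The genes most like each member were sought among the other 126 tested genes of the members and pathway lists, by the Euclidean distance between log2 CPM profiles centred on each gene's mean over 4 libraries. *Itpr1* and *Itpr3* lay close to each other (distance 0.0589), *Itpr1* also to *Bank1* (0.0735), and *Itpr3* next to *Btk* (0.0507) and *Dyrk2* (0.0661). *Plcg2* was nearest to *Ppp3cc* (0.0392), *Itpkc* (0.0538) and *Inpp5d* (0.0677). *Orai2* had no neighbour as near, the closest being *Prkcd* (0.156), *Dgka* (0.162) and *Prkcb* (0.166). *Itpr2* lay nearest to *Csnk1d* (0.0278), *Stim1* (0.0502) and *Camk2d* (0.0593), *Stim1* to *Atp2a2* (0.0429), *Itpr2* and *Csnk1a1* (0.0515), and *Stim2* to *Dgkz* (0.0407), *Csnk1a1* (0.0459) and *Atp2a2* (0.0461). *Nfatc1* was nearest to *Ahcyl1* (0.0608), *Nfatc3* (0.0696) and *Gsk3b* (0.104), all with their lowest CPM in MIZ-1 △POZ replicate 1. *Orai1* lay near *Blnk* (0.114) and *Cabin1* (0.116), and *Trpc1*, at distances of 0.360 to 0.410, to *Kcnn4*, *Ahcyl2* and *P2rx7*. With 2 libraries a genotype, such distances describe these libraries only.

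The other genes of the pathway were read from 14 lists, which hold 126 genes besides the members. Of the 117 tested, 26 were higher and 30 lower in MIZ-1 △POZ (median log2 fold change -0.07), against 21.1% and 18.9% of all genes (edgeR's quasi-likelihood test, Benjamini-Hochberg). On the pan-B cell scale 64 were higher and 7 lower, near the background of 7829 and 496 of 14554 genes. Without MIZ-1 WT replicate 1 the counts dropped to 13 higher and 11 lower, with 2222 of all genes called in place of 5822, and without MIZ-1 WT replicate 2 again to 13 and 11, with 2843 of all genes. The lists below are small, their genes are not independent, and no list was tested as a set. Their counts stand beside 21.1% of all genes higher and 18.9% lower under TMM. On the pan-B cell scale 7829 of 14554 genes were higher and 496 lower. An unadjusted p under 0.05 and DESeq2 called 7309 and 5082 of the 14554 genes in either direction.

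Upstream of PLCG2, 6 of 10 kinases, adaptors and coreceptors were lower and none higher, at an unadjusted p under 0.05 and with DESeq2 too, against 18.9% of all genes lower, whereas on the pan-B cell scale 4 were higher and none lower, against 7829 and 496 of 14554 genes. *Btk*, the kinase that phosphorylates PLCG2, was at 116 and 119 CPM in MIZ-1 WT and at 83.9 and 94.8 CPM in MIZ-1 △POZ (log2 fold change -0.40, SE 0.07, adjusted p = 0.00822, edgeR's quasi-likelihood test, Benjamini-Hochberg). On the pan-B cell scale *Btk* stood at -0.04, and its call was lost without MIZ-1 WT replicate 1 or 2 (adjusted p = 0.0550 and 0.0581, the same edgeR test, Benjamini-Hochberg). Among 8 tested phospholipases C, 3 were higher and 2 lower (3 and 3 at an unadjusted p under 0.05, 2 and 3 with DESeq2), and on the pan-B cell scale 5 and none. *Plcd3* rose from 5.25 and 4.90 CPM to 20.5 and 13.4 CPM (log2 fold change 1.74, SE 0.22), with its higher value in the library richest in macrophage markers. *Plcb2* fell by 0.45 (SE 0.11), a call lost on the pan-B cell scale (-0.10). The call was also lost without MIZ-1 WT replicate 1 or 2, where the log2 fold change stayed at -0.45 and -0.46. Without MIZ-1 △POZ replicate 1 *Plcb2* was at -0.28, and without MIZ-1 △POZ replicate 2 at -0.62.

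The enzymes that remove IP3 or diacylglycerol were lower in 5 of 9 cases and higher in none, again also without adjustment and with DESeq2 (median -0.45). Over all genes 18.9% were lower and 21.1% higher. On the pan-B cell scale 4 of these enzymes were lower and 2 higher, beside 496 and 7829 of 14554 genes. *Dgkd*, a diacylglycerol kinase, fell from 826 and 769 CPM to 483 and 509.7 CPM (log2 fold change -0.68, SE 0.06) and *Inpp5a*, an IP3 phosphatase, from 12.1 and 13.3 CPM to 7.23 and 8.13 CPM (-0.72, SE 0.11), and both stayed lower on the pan-B cell scale (-0.33 and -0.37). Without MIZ-1 WT replicate 2 the adjusted p of *Inpp5a* was 0.0513 (edgeR's quasi-likelihood test, Benjamini-Hochberg). The diacylglycerol branch, which runs beside the calcium signal, had 5 of 6 genes lower and none higher under TMM by the same 3 counts. These also stand against 18.9% of all genes lower and 21.1% higher. On the pan-B cell scale 2 of the 6 were lower and 2 higher, beside 496 and 7829 of 14554 genes. *Rasgrp2*, a calcium-regulated exchange factor for RAP1, fell from 402 and 399.5 CPM to 196 and 207 CPM (-0.99, SE 0.05, and -0.64 on the pan-B cell scale), and *Prkcb*, the protein kinase C beta of B cells, by 0.48 (SE 0.06), with -0.13 and no call on the pan-B cell scale.

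Of the 14 ER release genes, 4 were higher and 2, *Itpr1* and *Itpr3*, lower, and on the pan-B cell scale 8 were higher and none lower. *Pkd2*, a calcium-permeable channel, had 18 and 24 counts in MIZ-1 WT against 172 and 71 in MIZ-1 △POZ (log2 fold change 2.41, SE 0.47), a call lost without MIZ-1 WT replicate 1 or 2 (adjusted p = 0.0792 and 0.0533, edgeR's quasi-likelihood test, Benjamini-Hochberg). *Lrmp*, an ER protein that binds IP3 receptors and the most abundant of the list per kb, was at 0.12 and overlapped between genotypes. It was called on the pan-B cell scale (0.48, adjusted p = 0.00224, edgeR's quasi-likelihood test, Benjamini-Hochberg). The value of *Lrmp* was 0.22 without MIZ-1 △POZ replicate 2, 0.06 without MIZ-1 △POZ replicate 1 and 0.07 without MIZ-1 WT replicate 1. In the store entry list 3 of 9 tested genes were higher and *Orai2* alone was lower (2 and 1 with DESeq2), and on the pan-B cell scale 6 and none. *Orai3* was at 65.5 and 62.4 CPM in MIZ-1 WT and at 60.5 and 62.6 CPM in MIZ-1 △POZ (log2 fold change -0.06, 95% confidence interval -0.19 to 0.08, and 0.30 on the pan-B cell scale). *Cracr2b*, a calcium-binding regulator of ORAI1, had 10 and 16 counts against 83 and 42 (2.15, SE 0.44), and its call was lost without MIZ-1 WT replicate 1 (adjusted p = 0.0847, edgeR's quasi-likelihood test, Benjamini-Hochberg).

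Other channels of the plasma membrane split, with 4 of 12 tested genes higher and 3 lower (5 and 3 at an unadjusted p under 0.05), and 7 higher and 1 lower on the pan-B cell scale. *Hvcn1*, the proton channel of B cells, fell from 969 and 954 CPM to 599 and 616 CPM (-0.66, SE 0.05, and -0.31 on the pan-B cell scale), and *Trpm2*, a cation channel gated by ADP-ribose, rose from 34.0 and 37.9 CPM to 105 and 83.5 CPM (1.39, SE 0.12). Of the pumps and exchangers, 2 of 8 were higher and none lower, with 1 lower at an unadjusted p under 0.05 and none with DESeq2, and 5 higher and none lower on the pan-B cell scale. *Slc8a1*, a sodium and calcium exchanger, rose from 5.13 and 7.80 CPM to 32.0 and 20.7 CPM (2.03, SE 0.27). *Atp2a3*, the most abundant ER calcium pump, was at 434 and 419 CPM in MIZ-1 WT and at 259 and 363 CPM in MIZ-1 △POZ. Its change of -0.46 (SE 0.15) did not pass (adjusted p = 0.0584, edgeR's quasi-likelihood test, Benjamini-Hochberg). The log2 fold change of *Atp2a3* was -0.22 without MIZ-1 △POZ replicate 1 and -0.70 without replicate 2. In those fits the lone library left is assumed to vary like the MIZ-1 WT pair. *Atp2a3* was not called by DESeq2 (adjusted p = 0.124) or on the pan-B cell scale (-0.11, adjusted p = 0.447, edgeR's quasi-likelihood test, Benjamini-Hochberg). Mitochondrial uptake had 3 of 10 genes higher and none lower, with 4 higher and 2 lower at an unadjusted p under 0.05, 3 and none with DESeq2, and 7 and none on the pan-B cell scale. Its abundant *Vdac2*, a channel of the outer membrane, rose by 0.25 (SE 0.05) and *Mcub*, an inhibitory subunit of the uniporter, by 1.95 (SE 0.32). Without MIZ-1 WT replicate 1 neither was called (adjusted p = 0.127 and 0.0520), nor was *Vdac2* without MIZ-1 WT replicate 2 (adjusted p = 0.0633, edgeR's quasi-likelihood test, Benjamini-Hochberg). *Pkd2*, *Cracr2b*, *Trpm2*, *Slc8a1*, *Mcub* and *Plcd3*, like *Camk1* further down, all had their highest CPM in MIZ-1 △POZ replicate 1, as the macrophage markers did, and the part of such cells in these values was not tested.

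Downstream of calcium, 2 of 12 calmodulin and calcineurin genes were higher and 4 lower (2 and 6 at an unadjusted p under 0.05, 2 and 5 with DESeq2), and on the pan-B cell scale 7 were higher and none lower. The scaffold *Akap13* fell by 0.36 (0.00 on the pan-B cell scale) and the calcineurin anchor *Akap5* rose by 0.56. The *Akap13* call was lost without MIZ-1 WT replicate 1 or 2 (adjusted p = 0.0550 and 0.0899) and that of *Akap5* without MIZ-1 WT replicate 2 (adjusted p = 0.0570, all edgeR's quasi-likelihood test, Benjamini-Hochberg). Among calmodulin dependent kinases 2 of 9 were higher and 1 lower (5 and 1 at an unadjusted p under 0.05, 2 and 0 with DESeq2), and on the pan-B cell scale 7 and none. *Camk1* rose from 1.88 and 2.64 CPM to 10.1 and 6.51 CPM (1.88, SE 0.28), *Camk2d* was at 0.13 and past the threshold without MIZ-1 △POZ replicate 1 (0.16, adjusted p = 0.0452), among genes averaging 30 RPM or more (0.20, adjusted p = 0.0191) and on the pan-B cell scale (0.48, adjusted p = 0.000491), and *Camkk2*, at -0.20, lost its call without any one of the 4 libraries (adjusted p from 0.0794 to 0.162, edgeR's quasi-likelihood test, Benjamini-Hochberg) and was at 0.16 on the pan-B cell scale.

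None of the 4 tested NFAT genes was called in either direction, with *Nfat5* alone past an unadjusted p of 0.05 and called lower by DESeq2, and *Nfatc4* had 0 counts in every library. *Nfatc3*, the most abundant NFAT gene per kb, was at 162 and 141 CPM in MIZ-1 WT and at 108 and 143 CPM in MIZ-1 △POZ, and *Nfat5* at 118 and 99.6 against 81.2 and 94.1 CPM. As for *Nfatc1*, MIZ-1 △POZ replicate 1 was the lowest library for both. The log2 fold changes were -0.27 for *Nfatc3*, -0.31 for *Nfat5* and 0.12 for *Nfatc2*, and on the pan-B cell scale 0.08, 0.04 and 0.47, where *Nfatc2* alone of the NFAT genes was called. They depended on single libraries. With each library left out in turn, *Nfatc3* ranged from -0.47 to -0.08 and *Nfat5* from -0.43 to -0.19. Without MIZ-1 △POZ replicate 2 *Nfatc3* was at -0.47, *Nfat5* at -0.40 and *Nfatc2* at -0.12, and without MIZ-1 △POZ replicate 1 *Nfatc2* was at 0.35. Of 7 kinases that return NFAT to the cytosol 1 was higher and 3 lower (0 and 3 with DESeq2), and on the pan-B cell scale 4 and none. *Csnk1a1*, the most abundant, was at -0.01 (0.35 on the pan-B cell scale), while *Dyrk2* (-0.37) and *Csnk1e* (0.27) were called and lost the call without MIZ-1 WT replicate 1 (adjusted p = 0.0853 and 0.248) or 2 (0.123 and 0.0895), and *Csnk1e* also without MIZ-1 △POZ replicate 1 (0.0922, edgeR's quasi-likelihood test, Benjamini-Hochberg).

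Of the genes that BCR signals induce through calcium, calcineurin and NFAT, 2 of 10 were higher and 1 lower (median -0.02), against 21.1% and 18.9% of all genes. On the pan-B cell scale 5 were higher and none lower, beside 7829 and 496 of 14554 genes. *Myc* rose from 28.1 and 23.4 CPM to 35.2 and 39.5 CPM (0.53, SE 0.11), *Egr3* fell from 9.21 and 7.14 CPM to 4.56 and 5.40 CPM (-0.72, SE 0.18), and *Irf4* was at -0.09 (0.26 on the pan-B cell scale). The *Myc* call was lost without MIZ-1 WT replicate 2 (adjusted p = 0.0630), and that of *Egr3* without MIZ-1 WT replicate 1 (0.1401) or MIZ-1 △POZ replicate 1 (0.0539, edgeR's quasi-likelihood test, Benjamini-Hochberg).

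**Figure D4:**
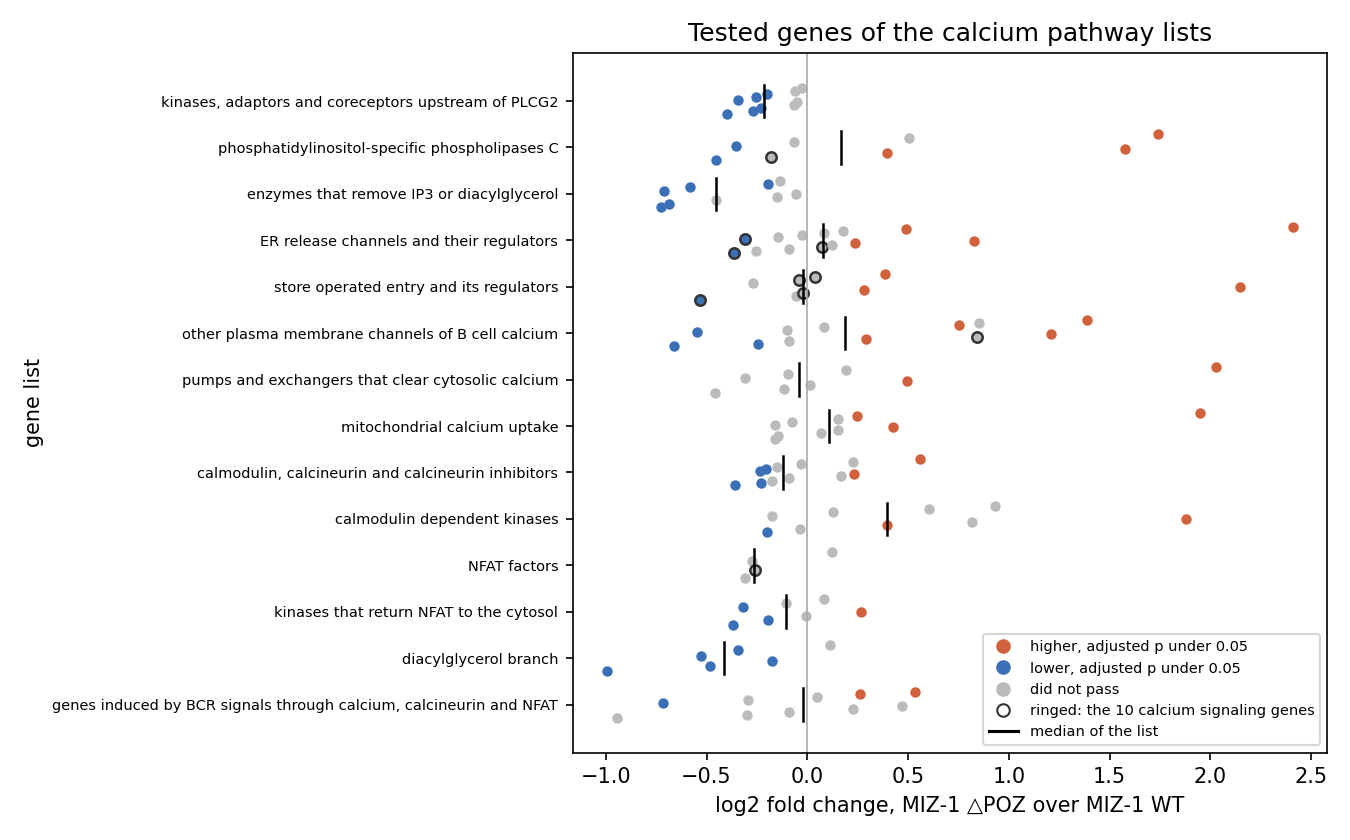
Log2 fold change of every tested gene in the 14 pathway lists (points, ringed for the 10 calcium signaling genes), with the median of each list as a bar, coloured by direction where the adjusted p was under 0.05. Genes upstream of PLCG2, enzymes that remove IP3 or diacylglycerol and the diacylglycerol branch hold 6, 5 and 5 lower genes under TMM (0, 4 and 2 on the pan-B cell scale). Of all genes 18.9% were lower under TMM, and 496 of 14554 on the pan-B cell scale. The release, entry and channel lists hold genes on both sides of 0.

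RefSeq promoters (GRCm38.p6, 250 bases before to 50 after a gene's start) were used for 8 of the 10 genes. *Itpr1* and *Nfatc1* were not part of this search. Both strands were searched for the letters ATCGAT, a reported MIZ-1 motif, and CACGTG, the E-box bound by MYC and MAX. They were also searched for GGAAAA, an NFAT core. CACGTG was found once in *Plcg2* and *Itpr3* and 2 times in *Orai2*, and stands in 7.15% of all 32817 promoters, with 2 or more copies in 0.594%. In *Stim1*, *Stim2*, *Orai1*, *Itpr2* and *Trpc1* it was absent from the window. ATCGAT and GGAAAA, held by 0.926% and 23.3% of all promoters, were in none of the 8 windows. From 60.0% to 78.7% of the bases in these windows were G or C, against a median of 52.7% over all promoters. The shares of all promoters are thus not a background matched in base content. The 250 bases before the start are shown for *Itpr3* (chr17:27057054-27057303, plus strand) and *Orai2* (chr5:136170657-136170906, minus strand), the called members with a promoter entry, beside *Itpr2* (chr6:146502224-146502473, minus strand), the IP3 receptor that was not called. They read 5′ to 3′ along each gene, with CACGTG in capitals, and such a match describes letters only.
Itpr3: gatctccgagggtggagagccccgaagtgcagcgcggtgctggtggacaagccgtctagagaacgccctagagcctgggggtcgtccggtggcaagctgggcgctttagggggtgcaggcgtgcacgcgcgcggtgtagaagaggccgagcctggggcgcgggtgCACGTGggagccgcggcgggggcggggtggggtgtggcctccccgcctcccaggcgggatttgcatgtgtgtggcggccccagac
Orai2: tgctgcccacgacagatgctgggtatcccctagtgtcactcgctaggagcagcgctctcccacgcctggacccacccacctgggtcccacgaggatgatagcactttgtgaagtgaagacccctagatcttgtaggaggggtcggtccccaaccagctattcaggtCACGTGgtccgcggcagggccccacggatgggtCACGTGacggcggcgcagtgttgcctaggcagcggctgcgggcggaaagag
Itpr2: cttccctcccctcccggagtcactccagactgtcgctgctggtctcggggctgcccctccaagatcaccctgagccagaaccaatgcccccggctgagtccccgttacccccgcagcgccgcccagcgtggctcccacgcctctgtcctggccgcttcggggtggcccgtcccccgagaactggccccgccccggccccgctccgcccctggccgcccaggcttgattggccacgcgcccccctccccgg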

How the data were processed

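RNA-seq counts of 4 libraries of B220+ splenocytes were analysed, grouped by genotype as labelled. The authors depleted ribosomal RNA, made stranded libraries (paired ends), trimmed reads with Trimmomatic, aligned them to mm10 (GRCm38) with TopHat2 (version 2.1.0 in the submitters' processing notes, another in the methods), counted genes with HTSeq and deposited raw counts. The strand setting and the Ensembl release are not given in the sources used here, so genes with partners on the opposite strand are uncertain: among genes printed with counts or changes, exons of *Itpr1*, *Itpr3*, *Orai1*, *Zbtb17*, *Xist*, *Plcg1*, *Inpp5a*, *Dgkd*, *Lrmp*, *Slc8a1*, *Vdac2*, *Camk1*, *Nfatc3*, *Dyrk2*, *Csnk1e*, *Rasgrp2*, *Cracr2b* and *Hvcn1* overlap such genes, those of the last 2 by the largest share, and so do those of *Vcam1* and of several nearest profiles, *Itpkc* among them. Reads outside genes made up 27.2%, 25.5%, 21.6% and 21.1% of the table, ambiguous reads at most 0.302% and reads without a unique alignment at most 44.1%, and all were left out. Of 41214 gene IDs, 40340 were given a symbol from GENCODE M21, which also gave positions and merged exon lengths.

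A gene was kept if 2 or more libraries held 10 or more of its counts, and was tested with edgeR 4.0.16 in R 4.3.3 (TMM, quasi-likelihood test, genotype as the only factor, Benjamini-Hochberg over all tested genes, threshold 0.05). CPM were computed on TMM library sizes, and log2 CPM with a prior count of 2. Low counts go with a large error for *Trpc1*. Replicate counts differed by more than sampling noise (chi-square per degree of freedom 9.79 for MIZ-1 WT, 21.9 for MIZ-1 △POZ). Alternatives were DESeq2 size factors, scaling to 10 pan-B cell genes, DESeq2 1.42.0, no filter, a floor of 30 RPM on the mean, replicate as a block, taking out 244 immunoglobulin gene segments, and dropping each library in turn. Named pathway genes were all tested genes of lists with at most 5, and otherwise the most abundant per exon length and the called gene with the largest log2 fold change in each direction, and a few genes so chosen are not reported here. *Cd79a*, *Plcg1*, *Xist* and *Ddx3y* were added outside this rule with their values known. The members and lists were chosen with earlier results of these data known.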

Additional observations from a re-analysis of the deposited data

How the results depend on the processing

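Over 43 genes and 11 alternatives, 371 of 459 log2 fold changes kept their direction and their side of the threshold, 45 lost the call, 23 gained it and 20 changed sign. DESeq2 size factors and removal of immunoglobulin gene segments changed no call among these genes.

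Scaling to pan-B cell genes called 5 members higher and 0 lower, and 64 pathway genes higher and 7 lower, beside 7829 and 496 of 14554 genes. It turned the log2 fold change of *Plcg2* to 0.18, *Itpr1* to 0.0468, *Stim2* to 0.34, *Orai1* to 0.31, *Nfatc1* to 0.0915, *Zbtb17* to 0.0348, *Orai3* to 0.30, *Camkk2* to 0.16, *Nfatc3* to 0.0768, *Nfat5* to 0.0425, *Csnk1a1* to 0.35 and *Irf4* to 0.26. By construction this scale moves all genes up by 0.36.

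Keeping only genes that averaged 30 RPM or more left 6052 genes, with 2746 called in place of 5822. It left 8 members, with 1 called higher and 3 lower, and 71 pathway genes, with 15 higher and 16 lower, which follows in part from fewer genes tested. It turned *Stim2* to 0.0571, *Orai3* to 0.0206 and *Csnk1a1* to 0.0680. Every member kept under this floor moved up, for example *Itpr1* from -0.31 to -0.23, *Orai2* from -0.53 to -0.46 and *Stim1* from 0.04 to 0.11. TMM factors were computed anew on the genes kept, so this floor also changes the library scale. The sign changes and new calls under it cannot be told apart from that change of scale.

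With a library left out, the lone library of its genotype is assumed to vary like the other group. The count of all genes called ranged from 2222 to 5580, of members called lower from 1 to 5, of pathway genes higher from 13 to 28 and lower from 11 to 33. *Stim2* ranged from -0.0248 to 0.0146 (without MIZ-1 △POZ replicate 1) and *Orai1* from -0.143 to 0.0613 (without MIZ-1 WT replicate 1), with 0.0475 without MIZ-1 △POZ replicate 1. *Nfatc2* ranged from -0.116 to 0.354 and *Csnk1a1* from -0.0144 to 0.0175, and both changed sign without MIZ-1 △POZ replicate 2. The cause was not tested.

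The replicate numbers are the only link between libraries of different genotype, and same-numbered deviations correlated at -0.07 over 14554 genes, so the numbers are not taken as a pairing. With the replicate block, 4732 genes were called, 3 members lower and 23 pathway genes higher and 24 lower. The block changed no member's call, ended those of *Camkk2* and *Csnk1e* and added *Atp2a3*.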
